A study of Mus musculus with 30 samples.

Results

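A set of 32 genes of the enteric nervous system and of the pacemaker cells beside it was followed in the mouse colon, out of the 46078 genes counted. They were chosen by name for their known roles, with earlier results of these data known, and the rule used no measured value. All 32 of 32 were found in the deposited tables. By role they comprised 14 genes used by neurons of all kinds (Elavl3, Elavl4, Uchl1, Snap25, Syt1, Stmn2, Stmn3, Tubb3, Prph, Nefl, Nefm, Gap43, Scg2 and Scg3), 8 genes of neurotransmission (Chat, Nos1, Vip, Tac1, Gal, Cartpt, Calb2 and Chrna3), 4 receptor genes (Ret, Gfra1, Gfra3 and Ednrb), 4 glial genes (Sox10, S100b, Gfap and Foxd3) and 2 genes of pacemaker cells (Kit and Ano1).

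RNA-seq was run on colon from 30 C57BL/6J mice, 1 library per mouse and 6 mice per group. The groups were females and males on control diet (CD F and CD M), females and males on high-fat diet (HFD F and HFD M) and males on high-fat diet given estradiol (HFD+E2 M). Diets lasted 13 weeks from a young age, and all mice received 9 intraperitoneal injections over the last 3 weeks, of vehicle in the first 4 groups and of estradiol (E2) at 0.5 mg/kg in the fifth. The females kept their ovaries, E2 was given to males on HFD at 1 dose, and the RNA came from colon tissue that held epithelium and muscle together.

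The enteric nervous system is a network of neurons and glia in the gut wall. Its ganglia lie between the muscle layers and in the submucosa. Excitatory motor neurons release acetylcholine and tachykinins, inhibitory motor neurons release nitric oxide and VIP, and both act on smooth muscle. Interstitial cells of Cajal pace the contractions of that muscle, and they need the receptor KIT and the chloride channel ANO1. The precursors of the neurons and glia enter the gut from the neural crest, and RET and EDNRB signaling guides them there. These cells form a small share of the tissue, so in whole colon fewer cells of a type cannot be told apart from less RNA per cell.

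The total counts per library ranged from 8667177 to 17243712. The summed TPM (transcript level scaled to gene length and to one total per library) of 16 smooth muscle genes was 3600 to 5464 in CD F and 5496 to 9020 in CD M, without overlap, and 3829 to 8470 in the other 3 groups. Genes of stratified squamous epithelium, which lines the anal canal and not the colon, summed to over 300 TPM in 5 libraries, 4 of HFD F and 1 of HFD M. These were replicates 1, 3, 4 and 5 of HFD F and replicate 2 of HFD M. The DEGs among the 32 genes in the HFD comparisons were therefore also counted without these 5 libraries, a choice made after seeing the data. The interaction, the other lists and the correlations are given with all libraries only.

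Levels differed widely between the 32 genes. On the TPM scale, Ano1 was the highest, with a mean of 119 TPM over the 30 libraries. Vip, the vasoactive intestinal peptide, followed at 16.0 TPM, and Kit, the receptor of stem cell factor, at 12.4 TPM. In all, 3 genes had a mean above 10 TPM, 20 lay between 1 and 10 TPM, and 9 lay below 1 TPM. The next levels were those of Scg2, a granin of secretory granules, at 9.63 TPM, Tac1, the precursor of substance P, at 9.48 TPM, and Uchl1, a neuronal ubiquitin hydrolase, at 6.72 TPM. The ranges of neighbors in this order overlapped across libraries, apart from Ano1 and the gene next to it.

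**Figure D1:**
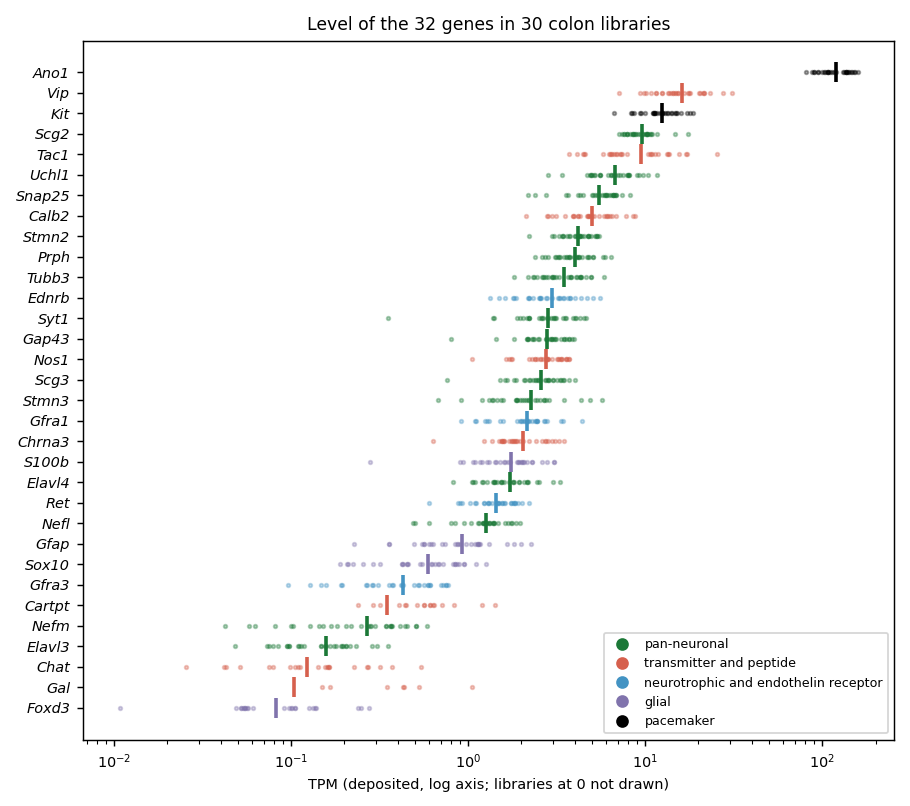
Deposited TPM (log axis) of each of the 32 genes in the 30 libraries; each dot is a library, each vertical tick the mean over all libraries, and colors give the role. Ano1 stands at a mean of 119 TPM, and 9 genes have a mean below 1 TPM.

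The order differed between the deposited TPM values and the counts. When levels were taken from the counts, per kilobase of the gene model and scaled to library size, the order began with Ano1, Scg2, Vip and Kit. Tac1 moved from rank 5 to rank 10, and Snap25, a synaptic fusion protein, from 7 to 16. Kit and Ano1 mark the same pacemaker cells in the muscle wall, and Ano1 was 9.63 times as high as Kit in TPM and 11.6 times as high by counts per kilobase. Ano1 is also used by other cell types, so its level is not that of pacemaker cells alone.

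Glial genes were low. S100b, a calcium-binding protein of glia, had a mean of 1.74 TPM, Gfap, the glial intermediate filament, 0.924 TPM, and Sox10, the transcription factor of neural crest and glia, 0.596 TPM. Foxd3, a neural crest transcription factor, had 0 to 6 counts per library and was at 0 counts in 6 libraries. The other genes with the fewest counts were Gal, the peptide galanin, with 1 to 10 counts, Cartpt, a neuropeptide of myenteric neurons, with 0 to 11, Chat, the enzyme that makes acetylcholine, with 0 to 16, Nefm, a neurofilament, with 2 to 22, and Elavl3, an RNA-binding protein of neurons, with 3 to 15. These 6 genes fell below the count filter in all 5 comparisons and were not tested. Gal was listed at 0 TPM in 23 libraries although it had counts in each, so no TPM change is given for it. Gfra3, the artemin co-receptor, had 4 to 27 counts and passed the filter in 3 comparisons. The remaining 25 genes were tested in all 5. Nefl and Nefm overlap each other on opposite strands, and Uchl1, Nos1 and Gfra1 overlap an antisense gene. Whether the counting used the strand is not given in the sources used here, so reads of such pairs cannot be told apart.

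Over the 5 comparisons there were 128 tests of these genes. A gene was called differentially expressed (DEG) by the study's threshold, here with edgeR: p under 0.05 before adjustment, and a change larger than 0.4 on the log2 scale, up or down. By this threshold 10 of the 128 tests gave a DEG, 9 lower and 1 higher in the first-named group, in 7 genes: Kit, Ednrb, S100b, Vip, Tac1, Elavl4 and Syt1. One of the 10 also had an adjusted p-value under 0.05. On GRCm38, the deposited positions of these 7 genes are chr5:75574916-75656722 (Kit), chr14:103814625-103844173 (Ednrb), chr10:76253853-76261159 (S100b), chr10:5639218-5647614 (Vip), chr6:7554879-7565834 (Tac1), chr4:110203722-110351909 (Elavl4) and chr10:108497650-109010982 (Syt1). In every comparison the libraries of both groups overlapped for each of the 32 genes. The share of all genes with such overlap was not computed, so this is not read as particular to these genes. Comparisons that share a group, such as the HFD M libraries in 3 of the 5, are not independent. Levels by library are given below as normalized CPM, that is counts scaled to the library size with TMM normalization, which compare a gene between libraries and not genes with each other.

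**Figure D2:**
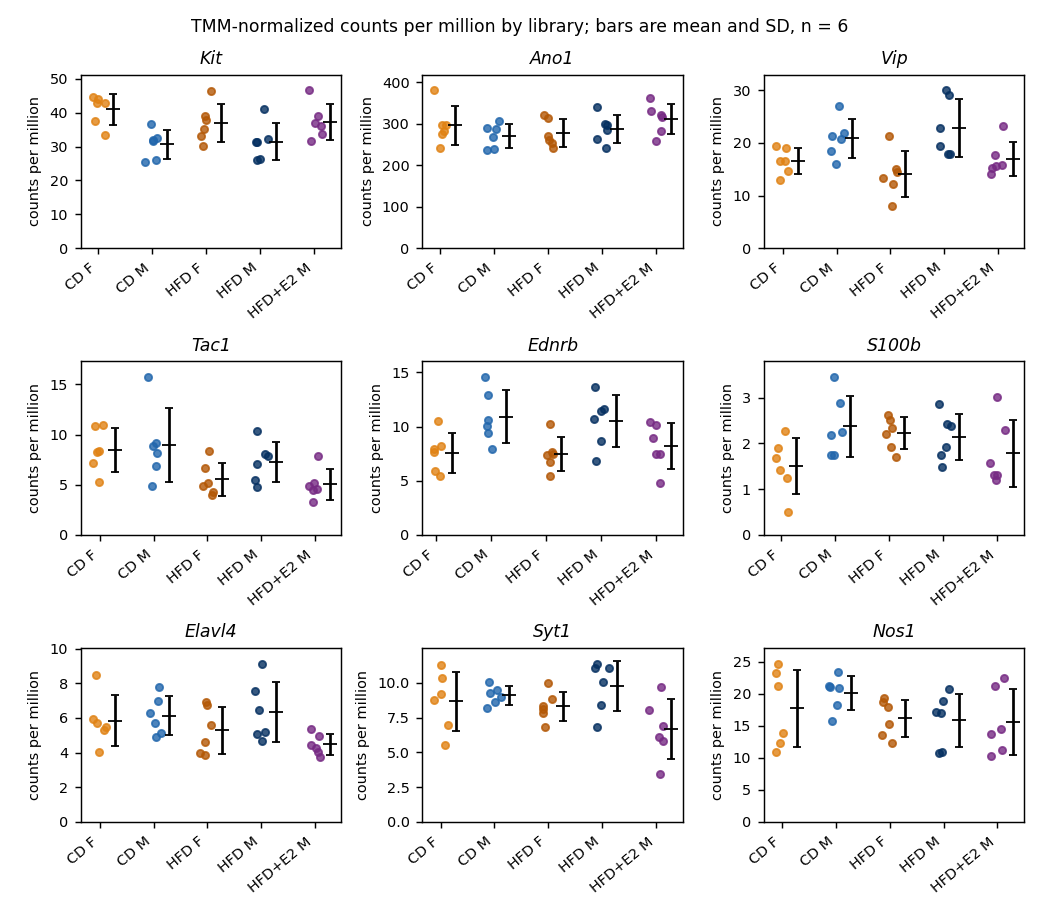
Normalized CPM of 9 genes, each dot a library, with the mean and SD of the 6 libraries of each group beside it. Kit in CD F runs from 33.5 to 44.6 CPM against 25.3 to 36.6 in CD M, and Vip in HFD M from 17.9 to 30.03 against 14.02 to 23.2 in HFD+E2 M.

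The first question was whether the sexes differ on control diet. Kit was higher in CD F, whereas Ednrb, the endothelin receptor of neural crest cells, and S100b were lower. These were 3 of 25 tested genes, while 9.15% of all genes tested were DEGs in this comparison (2.94% higher and 6.21% lower). By the adjusted p-value it was 1 of 25, Kit, against 2.74% of all genes. The other 22 did not pass the threshold, among them all 12 tested neuronal genes and all 5 tested genes of neurotransmission.

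Kit was at 33.5, 42.9 and 44.6 CPM (lowest, median, highest) in CD F and at 25.3, 31.7 and 36.6 CPM in CD M. All but 1 of the females lay above the highest male, and the ranges met between 33.5 and 36.6 CPM. The log2 fold change of Kit was 0.42 (SE 0.11, n = 6 per group, adjusted p = 0.0404 with edgeR; exact permutation p = 0.00433). The adjusted p-value was under 0.05 without 3 of the 12 libraries in turn, replicate 4 of CD F and replicates 1 and 2 of CD M, and over it without each of the other 9 (0.0249 to 0.106 over the 12). The study's threshold was also missed when any 1 of 4 libraries was left out, replicates 1 and 3 of CD F and 4 and 5 of CD M, with log2 fold changes down to 0.37. On the deposited TPM values the difference of Kit was 0.16 on the log2(TPM + 0.1) scale (exact permutation p = 0.335), while the median of all genes tested lay 0.11 lower in CD F on that scale.

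Ano1 did not pass the threshold between CD F and CD M. It was at 242, 289 and 380 CPM in CD F and 235, 277 and 307 CPM in CD M, and its log2 fold change was 0.13 (SE 0.10, adjusted p = 0.630 with edgeR). On the TPM scale that value was -0.17, so its direction depended on the scaling. Of 7 other genes of interstitial cells, such as Etv1 and Thbs4, 0 of 7 were DEGs, with a median log2 fold change of -0.07. Kit is also carried by mast cells and melanocytes. The 8 mast cell genes summed to 2.12 to 6.89 TPM in CD F and 4.20 to 11.02 TPM in CD M. Of these, 1 passed the count filter, the protease gene Cma1, at -0.76. The 5 melanocyte genes summed to at most 1.37 TPM in any library. The cell type behind the Kit difference was not tested.

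Ednrb was at 5.41, 7.76 and 10.6 CPM in CD F and at 7.89, 10.3 and 14.6 CPM in CD M. Its log2 fold change was -0.53 (SE 0.18, adjusted p = 0.133 with edgeR; exact permutation p = 0.0281), and it passed the study's threshold without each of the 12 libraries in turn. S100b was at 0.493, 1.55 and 2.27 CPM in CD F and 1.74, 2.21 and 3.45 CPM in CD M, with a log2 fold change of -0.65 (SE 0.29, adjusted p = 0.301 with edgeR; exact permutation p = 0.0411). It did not pass when any 1 of 5 libraries was left out, replicates 1, 2 and 4 of CD F and 2 and 4 of CD M. Sox10, the other main glial gene, had the widest interval of the comparison, with a log2 fold change of -0.74 (SE 0.40, adjusted p = 0.425 with edgeR).

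Smooth muscle moved with this comparison, as 16 of 16 smooth muscle genes were lower in CD F (median log2 fold change -0.61). With the muscle level as a covariate, the log2 fold change of Ednrb was -0.94 (adjusted p = 0.0510 with edgeR), that of Kit 0.35 (adjusted p = 0.221), and that of S100b -0.0038 (adjusted p = 0.997), and of these 3 only Ednrb passed the study's threshold. In that fit Tac1 at -0.72, Stmn3 at 0.72 and Chrna3 at 0.87 passed as well (adjusted p = 0.161, 0.221 and 0.0668 with edgeR). The median of the 25 tested genes was -0.10 without the covariate and 0.12 with it. For the 3 tested glial genes among the 32 it was -0.65 and 0.69, so Sox10 was positive with the covariate. As the muscle level did not overlap between CD F and CD M in TPM, sex and muscle content cannot be told apart here. The glial gene list fixed beside the 32 genes had 3 of 14 tested genes lower and 0 higher, led by Ptprz1, a receptor phosphatase, at -0.75 (SE 0.17, adjusted p = 0.0219 with edgeR) and Art3 at -0.67 (SE 0.18, adjusted p = 0.0583). Of all genes tested, 6.21% were lower. The median log2 fold change of this glial list was -0.19, and -0.31 with the muscle level as a covariate. Of 27 tested other neuronal genes, 2 were higher and 3 lower. Resp18, a protein of endocrine and neuronal secretory granules, was higher at 0.73 (SE 0.19, adjusted p = 0.0488), and Penk, the enkephalin precursor, lower at -1.12 (SE 0.31, adjusted p = 0.0724). The 8 tested enteroendocrine genes, of epithelial hormone cells that share granule proteins with neurons, had 4 higher and 0 lower (median 0.52).

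Genes of the RET and endothelin pathway, that is ligands, co-receptors and related neurotrophin genes, had 5 of 13 tested genes lower in CD F and 0 higher, with a median log2 fold change of -0.31. With the muscle level as a covariate this median was 0.02. Gas1, a protein related to the GFRA co-receptors and used in hedgehog signaling, was at -0.98 (SE 0.13, adjusted p = 0.000595 with edgeR). Gfra2, the neurturin co-receptor, was at -0.71 (SE 0.20, adjusted p = 0.0718). Among the 32 genes, Ret, the receptor tyrosine kinase of this pathway, was at 6.79 to 9.07 CPM in CD F and 7.70 to 10.9 CPM in CD M, and Gfra1, the GDNF co-receptor, at 4.84 to 8.59 and 6.53 to 8.24 CPM. The 95% interval of the log2 fold change lay within 0.4 of zero for 5 of the 25 genes, Ret, Ano1, Uchl1, Snap25 and Syt1.

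**Figure D3:**
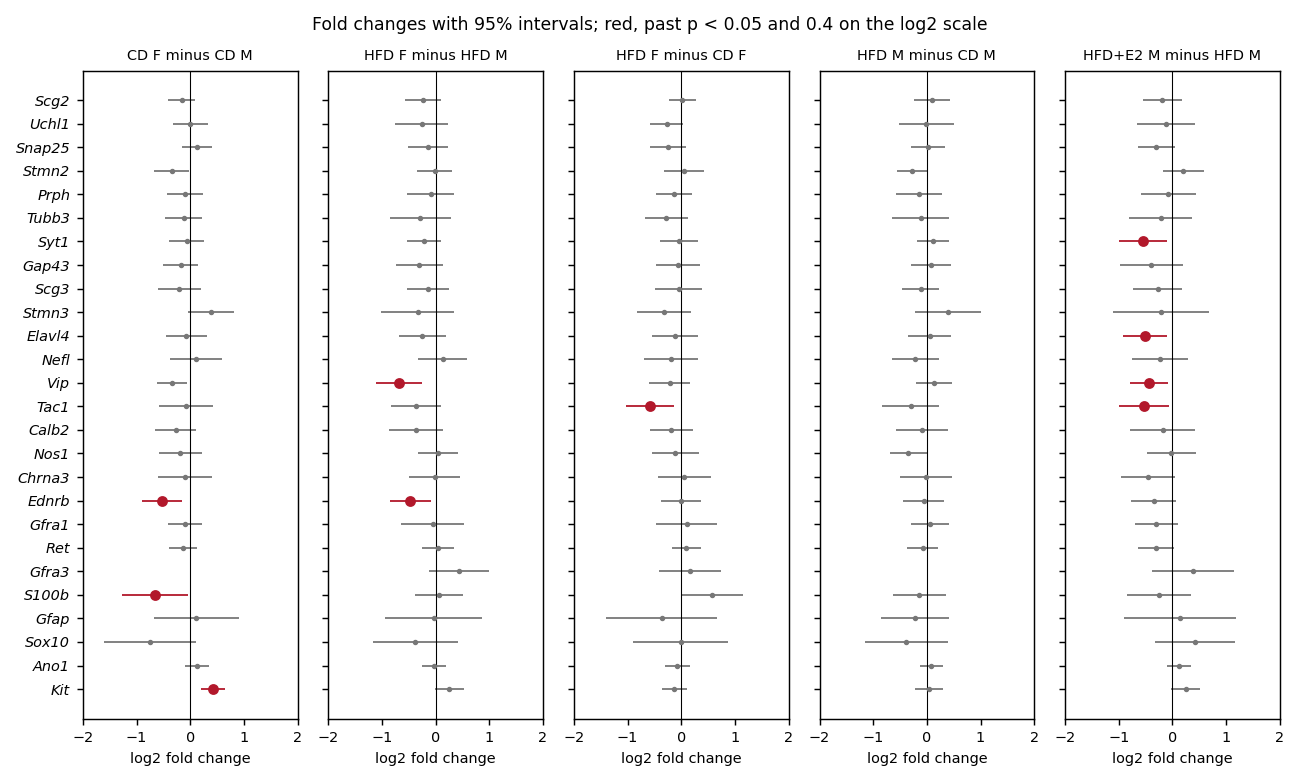
Log2 fold changes of the 26 genes tested in at least 1 comparison, with 95% intervals, one panel per comparison; red marks DEGs by the study's threshold. The 10 red points are 3, 2, 1, 0 and 4 from left to right, and the one to the right of zero is Kit.

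Between the sexes on HFD, the transmitter gene Vip and the receptor gene Ednrb were lower in females. These were 2 of 26 tested genes, and 3.09% of all genes tested were DEGs (1.08% lower). Neither passed after adjustment, whereas 0.0988% of all genes did, and neither passed once the 5 libraries with squamous genes were left out. Kit, Ano1 and the glial genes did not pass the threshold.

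Vip was at 8.08, 13.9 and 21.4 CPM in HFD F and at 17.9, 21.2 and 30.03 CPM in HFD M. All but 1 of the HFD F libraries lay below the lowest male. The log2 fold change was -0.69 (SE 0.20, p = 0.00389, adjusted p = 0.746 with edgeR; exact permutation p = 0.0108), and Vip passed without each of the 12 libraries in turn. Without the libraries with squamous genes, which left 2 females against 5 males, it was -0.40 and missed the threshold. On CD, Vip was at 13.0, 16.6 and 19.4 CPM in females and 16.0, 21.0 and 27.1 CPM in males, a log2 fold change of -0.34 (exact permutation p = 0.0346) that missed the minimum size, as did Stmn2, a microtubule regulator of growing neurites, at -0.35 (exact permutation p = 0.0216).

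Ednrb was at 5.47, 7.42 and 10.2 CPM in HFD F and 6.85, 11.1 and 13.6 CPM in HFD M (log2 fold change -0.47, SE 0.18, adjusted p = 0.872 with edgeR). It was therefore lower in females by the study's threshold on both diets. Genes of endothelium also had negative medians in females, -0.31 on CD and -0.32 on HFD. Genes of fibroblasts had medians of -0.55 on CD and 0.09 on HFD. The cell type behind the Ednrb difference was not tested. On HFD the call was lost without replicate 3 of HFD F or replicate 6 of HFD M, and without the libraries with squamous genes the value was -0.20. In that smaller set Kit passed the threshold, at 0.45, against 0.25 with all 12 libraries. Among the other neuronal genes, 1 was higher and 3 lower of 29 tested, with Penk at -0.85 (SE 0.28, adjusted p = 0.850) and Syt4, a synaptotagmin of dense-core vesicles, at -0.56 (SE 0.20, adjusted p = 0.872) having the smallest p-values. The 14 tested squamous genes had a median log2 fold change of 2.38 in this comparison, and their part in these results was not tested beyond the fits named.

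HFD itself was compared with CD within each sex. In females, Tac1 was the only DEG of 26 tested genes, lower on HFD, where 3.67% of all genes tested were DEGs (0.724% lower). In males, 0 of 25 were DEGs with edgeR and 0 with DESeq2, and 2.90% of all genes were. By the adjusted p-value with edgeR there were 0 in either sex, against 0.0199% of all genes in females and 0.00% in males. At an unadjusted p-value under 0.05 with no minimum size there was 1 in each sex, Tac1 in females and Stmn2 in males.

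Tac1 was at 5.23, 8.28 and 10.9 CPM in CD F and at 3.99, 5.01 and 8.32 CPM in HFD F. The upper part of the HFD range overlapped the CD range. The log2 fold change was -0.59 (SE 0.21, p = 0.0128, adjusted p = 0.604 with edgeR; exact permutation p = 0.0216), and it passed without each of the 12 libraries in turn. It was -0.36, and missed the threshold, both without the 4 HFD F libraries with squamous genes and with the squamous level as a covariate. In these 2 settings Tubb3, the neuronal tubulin, passed instead, lower on HFD at -0.61 and -0.56. The 4 squamous genes tested had a median log2 fold change of 3.99 here. In males Tac1 was at 4.92, 8.49 and 15.7 CPM on CD and 4.76, 7.47 and 10.3 CPM on HFD, which did not pass. With the muscle level as a covariate it did pass in males, at -0.60 (adjusted p = 0.983 with edgeR), and in females Tac1 was then at -0.47 and passed. S100b in females went from a median of 1.55 to 2.27 CPM (log2 fold change 0.58, SE 0.27, adjusted p = 0.888 with edgeR; exact permutation p = 0.0238) and missed the threshold.

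Stmn2 in males was at 6.92, 7.72 and 8.66 CPM on CD and 5.36, 6.44 and 7.35 CPM on HFD (log2 fold change -0.28, SE 0.13, adjusted p = 0.823 with edgeR; exact permutation p = 0.00433). In females the ranges on both diets covered each other, at 4.32 to 8.04 and 4.69 to 7.49 CPM. Nos1, the neuronal nitric oxide synthase, was in males at 15.7, 21.0 and 23.4 CPM on CD and 10.7, 17.0 and 20.7 CPM on HFD (log2 fold change -0.34, SE 0.17, exact permutation p = 0.0714). The study lists Nos1 among the genes regulated by HFD in males. Here it missed the threshold with all 12 libraries. It passed without replicate 1 of CD M, at -0.41, and without replicate 4 of HFD M, at -0.44. In females Nos1 was at 10.9, 17.6 and 24.6 CPM on CD and 12.2, 16.6 and 19.3 CPM on HFD. The smooth muscle genes had a median log2 fold change of -0.29 in males, with 16 of 16 negative, and 0.23 in females, with 16 of 16 positive. The interval lay within 0.4 of zero for Ano1, Kit and Ret in both sexes.

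Whether the diet effect differed between the sexes was tested with an interaction term in the 24 vehicle libraries. Of 29 genes tested, 0 had a p-value under 0.05 (lowest adjusted p = 0.736 with edgeR), and 6.75% of all genes did. Of the lists beside the 32 genes, the RET and endothelin pathway had 3 of 12 tested genes higher on HFD in females, with Ntrk2, the BDNF receptor, at 1.49 (SE 0.44, adjusted p = 0.500) and Gas1 at 0.44 (SE 0.14, adjusted p = 0.531). In males the same list had 1 higher and 2 lower of 13, with the smallest p-values for Gfra2 at -0.55 (SE 0.19, adjusted p = 0.716) and Ntrk2 at 0.52 (SE 0.22, adjusted p = 0.823).

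The last comparison was of E2 with vehicle in HFD males. Elavl4, Syt1, Vip and Tac1 were lower with E2 than with vehicle, 4 of 26 tested, where 5.87% of all genes tested were DEGs (3.24% lower). Elavl4 is an RNA-binding protein of neurons, Syt1 the calcium sensor of synaptic vesicles, and Vip and Tac1 encode peptides of inhibitory and excitatory motor neurons. Which cells of the colon lay behind these 4 differences was not tested. None passed after adjustment (adjusted p = 0.461 to 0.471 with edgeR), whereas 0.00666% of all genes did.

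Elavl4 was at 4.68, 5.82 and 9.12 CPM in HFD M and 3.76, 4.36 and 5.38 CPM in HFD+E2 M, a log2 fold change of -0.51 (SE 0.20, p = 0.0183 with edgeR; exact permutation p = 0.0195). Syt1 was at 6.84, 10.6 and 11.4 CPM and 3.40, 6.52 and 9.73 CPM, a log2 fold change of -0.55 (SE 0.21, p = 0.0195 with edgeR; exact permutation p = 0.0260). For both genes the highest values were in HFD M and the lowest in HFD+E2 M, and the ranges overlapped. Elavl4 lost its call without replicate 3 of HFD M, at -0.38, and Syt1 passed without each of the 12 libraries in turn.

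Vip was at 17.9, 21.2 and 30.03 CPM in HFD M and 14.02, 15.7 and 23.2 CPM in HFD+E2 M (log2 fold change -0.44, SE 0.16, p = 0.0165 with edgeR; exact permutation p = 0.0476). Tac1 was at 4.76, 7.47 and 10.3 CPM and 3.24, 4.74 and 7.85 CPM (-0.52, SE 0.22, p = 0.0301 with edgeR; exact permutation p = 0.0476). Vip lost its call when any 1 of 4 libraries was left out, replicates 1 and 3 of HFD M and 2 and 4 of HFD+E2 M, and Tac1 when any 1 of 7 was, replicates 1, 2 and 6 of HFD M and 2 to 5 of HFD+E2 M. Without replicate 2 of HFD M, the library with squamous genes, Tac1 was at -0.40 and missed the threshold, and the other 3 genes passed.

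Many genes that did not pass had the same sign. Of the 26 tested genes, 20 had a negative log2 fold change, including 11 of 12 neuronal genes and 5 of 5 genes of neurotransmission, with medians of -0.23 and -0.44. The comparison of the sexes on HFD, which shares the HFD M libraries, also had 20 of 26 negative values and 11 of 12 among the neuronal genes (median -0.23), and HFD in females had 19 of 26, so the count is not particular to E2. The median of all genes tested was 0.00, and on the log2(TPM + 0.1) scale it was -0.16. Stmn2 was the neuronal gene with a positive value, at 4.35 to 8.96 CPM with E2 and 5.36 to 7.35 CPM without. The pacemaker genes had positive values, 0.25 for Kit (SE 0.13, adjusted p = 0.506 with edgeR) and 0.12 for Ano1. The 3 tested glial genes ranged from -0.25 to 0.42. These genes share libraries and cell types, so their signs are not independent observations.

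Of the other neuronal genes, 3 of 27 tested were lower with E2 and 0 higher, with 13 positive and 14 negative values and a median log2 fold change of -0.10 over the 27. They included Htr3a, a serotonin receptor channel of enteric neurons, at -0.80 (SE 0.20, adjusted p = 0.389 with edgeR) and Syt4 at -0.65 (SE 0.21, adjusted p = 0.455). The other glial genes had 1 lower of 14, Cdh19, a cadherin of glia, at -0.71 (SE 0.24, adjusted p = 0.455), and the pathway list 1 lower of 13, Gdnf, the ligand of RET, at -0.60 (SE 0.28, adjusted p = 0.479). The smooth muscle genes had a median of 0.10, and the 8 enteroendocrine genes had 4 higher and 0 lower (median 0.59). The part of these other tissues in the result was not tested apart from the covariate fits, in which Elavl4, Syt1 and Vip passed with the muscle level or with the squamous level in the model. Tac1 passed with the muscle level and missed the threshold with the squamous level. Chrna3 was gained with the muscle level, at -0.52, and Snap25 with the squamous level, at -0.42.

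**Figure D4:**
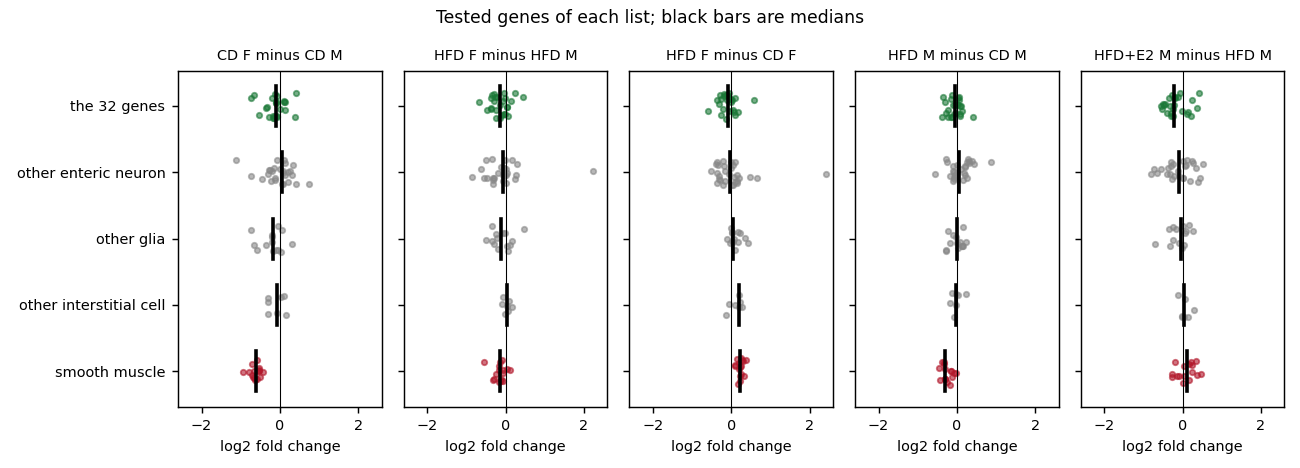
Log2 fold changes of the tested genes of 5 lists in the 5 comparisons; each dot is a gene and black bars are medians. The 32 genes have medians from -0.23 to -0.06, and the smooth muscle genes from -0.61 to 0.23.

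To show the promoters of genes that were lower with E2, the sequences before the RefSeq transcription start are given for 3 of the 4, those whose window lay outside the deposited gene or, for Syt1, nearly so, where it was cut at the gene end to 243 bases (RefSeq on GRCm38.p6, each read 5′ to 3′ on the strand of the gene). Capitals mark TGACG, one arm of the cAMP response element, on either strand, and the TATA box TATAAA. Vip is on the plus strand, and Elavl4 and Syt1 are on the minus strand.
Vip, chr10:5638968-5639217: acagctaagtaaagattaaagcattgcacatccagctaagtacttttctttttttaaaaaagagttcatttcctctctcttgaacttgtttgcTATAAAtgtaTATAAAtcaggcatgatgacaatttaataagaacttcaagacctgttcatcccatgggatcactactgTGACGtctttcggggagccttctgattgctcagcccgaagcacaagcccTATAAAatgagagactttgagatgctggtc
Elavl4, chr4:110351912-110352161: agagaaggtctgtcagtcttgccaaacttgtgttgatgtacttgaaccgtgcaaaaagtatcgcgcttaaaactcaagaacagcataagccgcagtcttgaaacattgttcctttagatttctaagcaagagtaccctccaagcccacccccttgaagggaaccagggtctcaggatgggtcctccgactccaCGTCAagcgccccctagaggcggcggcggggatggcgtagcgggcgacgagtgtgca
Syt1, chr10:109010983-109011225: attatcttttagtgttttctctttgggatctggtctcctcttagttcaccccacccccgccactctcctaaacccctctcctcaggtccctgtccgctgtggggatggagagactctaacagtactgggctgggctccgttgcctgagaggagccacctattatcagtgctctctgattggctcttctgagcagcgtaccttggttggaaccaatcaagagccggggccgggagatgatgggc

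Each motif was searched on both strands in the 250 bases before each start, and 23 of the 32 genes had such a window. The window of Vip held TGACG and 3 copies of TATAAA, that of Elavl4 held TGACG once, and that of Syt1 held neither, in its 243 printed bases or in the full 250. Among the 23 genes, 10 had TGACG in a window, against 19.8% of all genes with a window. GGTCA, one arm of the estrogen response element, was found in 11 of the 23 and in 38.4% of all genes. The full element, GGTCA and TGACC with 3 bases between them, was found in 0 of the 23 and in 0.0666% of all genes. Some genes have more than 1 window, and the 3 printed windows held no GGTCA. These counts describe letters in short windows and not binding.

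Across the 30 libraries, the muscle content of each piece was compared with each gene after the group means were removed. The log2 CPM of 9 of the 32 genes was correlated with the mean log2 CPM of the smooth muscle genes at an adjusted p-value under 0.05 by permutation, 6 positively and 3 negatively. With the smooth muscle gene Myh11 alone as the muscle level it was 13 genes, 9 positively and 4 negatively. These were the same 9 genes with Prph, Chrna3, S100b and Gfra3. The share of all genes correlated in this way was not computed, so neither count is read as particular to these genes. The shuffling ran over all 30 libraries and not within groups, so the permutation p-values are somewhat too low. Kit, Nefm and Sox10 were nearest the limit, each with an adjusted permutation p of 0.0495. The levels are shares of 1 total, so a rise of one tissue lowers the share of the others.

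Nos1 had the highest positive value (r = 0.61, permutation p = 0.00037, adjusted p = 0.00459; rho = 0.59, permutation p = 0.00065), and r was 0.55 without the 2 libraries farthest from the median muscle level. Tubb3 had r = 0.57 (permutation p = 0.00095; rho = 0.62, permutation p = 0.00039; 0.50 without the 2 libraries). Stmn3, a stathmin, had r = 0.56 (permutation p = 0.00124; rho = 0.57, permutation p = 0.00132; 0.49 without them). These 3 were positive within each of the 5 groups. Elavl3 had r = 0.53 (permutation p = 0.00266; rho = 0.53, permutation p = 0.00267; 0.53 without them), Nefm r = 0.45 (permutation p = 0.0127; rho = 0.44, permutation p = 0.0154; 0.32 without them) and Sox10 r = 0.45 (permutation p = 0.0134; rho = 0.43, permutation p = 0.0184; 0.49 without them). Each was positive in 4 of 5 groups, and the rank correlations of Nefm and Sox10 had adjusted p-values of 0.0615 and 0.0654.

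The negative correlations were those of Tac1 (r = -0.68, permutation p = 4e-05, adjusted p = 0.00128; rho = -0.66, permutation p = 0.00013), Ednrb (r = -0.61, permutation p = 0.00043, adjusted p = 0.00459; rho = -0.62, permutation p = 0.00033) and Kit (r = -0.45, permutation p = 0.0139, adjusted p = 0.0495; rho = -0.46, permutation p = 0.0126, adjusted p = 0.0577). Without the 2 farthest libraries r was -0.59, -0.49 and -0.40. Each was negative in 5 of 5 groups. Vip and Nos1, both of inhibitory motor neurons, lay apart on this scale, Vip at r = -0.28 (permutation p = 0.132; rho = -0.25, permutation p = 0.185) and Nos1 at 0.61. Over all 32 genes r ranged from -0.68 to 0.61 with a median of 0.16, 22 positive and 10 negative.

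**Figure D5:**
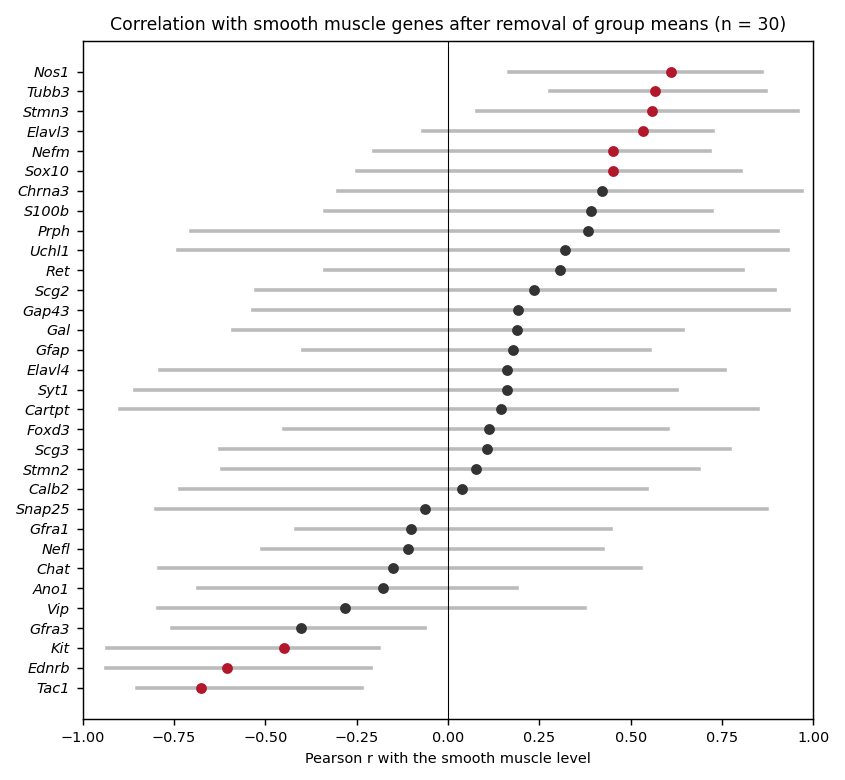
Pearson r of each gene with the smooth muscle level over 30 libraries after removal of group means; dots are r, red where the adjusted permutation p is under 0.05, and gray bars span the lowest to the highest r within the 5 groups. Nos1 is at the top at 0.61 and Tac1 at the bottom at -0.68.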

How the data were processed

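Colon RNA of 30 mice was sequenced after removal of ribosomal RNA (TruSeq Stranded Total RNA), 6 mice in each of 5 groups. The authors mapped the reads to GRCm38 with STAR, counted them per gene with featureCounts and deposited raw counts for 46078 genes, and deposited TPM values made with StringTie. Each library's counts matched its own TPM values best in 30 of 30 cases. No pair of libraries of the same group agreed within sampling noise, and pairs across groups were not checked.

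The 32 genes and all gene lists were chosen with earlier results of these data known. Counts were fitted over all genes in the 12 libraries of each comparison with edgeR 4.0.16 in R 4.3.3 (filterByExpr, TMM, robust quasi-likelihood F-test). DEGs followed the study's p-value under 0.05 and log2 fold change over 0.4, read as unadjusted. Benjamini-Hochberg adjustment over all genes tested is given beside it. Standard errors follow from the F statistic, and 95% intervals use its degrees of freedom. Exact two-sided permutation tests used log2 CPM (prior count 2) and cannot go below p = 0.00216. Correlations used 100000 permutations, adjusted over the 32 genes. The values were shuffled over all libraries after the group means were removed, which makes these p-values somewhat too low. The tests were checked on simulated data.

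Values are given for genes past the threshold in any comparison and for the most abundant of each role. From other lists, genes past the adjusted threshold or with the 2 smallest p-values are named. DESeq2 1.42.0 and the other alternatives are described in the closing section. No batch was given in the labels. The intervals and p-values cover 6 mice per group and short-read counts without molecular identifiers.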

Additional observations from a re-analysis of the deposited data

Results flagged for a closer look

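In groups of 6 libraries, 1 library stood apart from the other 5 by Dixon's ratio (gap over range, above its 95% critical value) in 7 of the 160 combinations of gene and group, and chance flags about 1 in 20. Snap25 was lowest in HFD F replicate 5 (0.664), with 51 counts against 89 to 113. Nefl was lowest in CD F replicate 4 (0.629), with 14 counts against 39 to 53. Gal was highest in HFD M replicate 4 (0.762), with 8 counts against 2 to 4. Scg3 was highest in CD F replicate 5 (0.661), with 73 counts against 37 to 52. Gfap was highest in CD M replicate 2 (0.655), with 37 counts against 13 to 25, and lowest in HFD+E2 M replicate 2 (0.627), with 0 counts against 12 to 48. Gap43 was lowest in HFD M replicate 2 (0.717), with 22 counts against 34 to 45. Gal was not tested, and the other 5 genes were DEGs in no comparison.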

How the results depend on the processing

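In females against males on CD, 3 genes were DEGs, and 5 were without a minimum fold change. The adjusted count of 1 (Kit) was 0 with no filter on low counts, 0 with the smooth muscle level and 0 with the squamous level as a covariate. Between the sexes on HFD, 2 became 1 with the squamous level as a covariate and 1 without the 5 libraries with squamous genes. For HFD in females, the gene was Tubb3 in place of Tac1 with the squamous level as a covariate and without those libraries, and 1 became 2 with all 30 libraries in one fit. For HFD in males, 0 became 1 with the smooth muscle level (Tac1) and 1 without a minimum fold change. With the smooth muscle level in the fit of the sexes on CD, Chrna3, a subunit of the ganglionic acetylcholine receptor, was at 0.87 (adjusted p = 0.0668 with edgeR), the opposite sign to its value without it. The causes were not tested.

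Leaving out each library in turn gave 1 to 5 DEGs for sex on CD (1 without CD M replicate 4, 5 without CD F replicate 5; adjusted 0 to 1), 1 to 3 for sex on HFD (1 without HFD F replicate 3 or HFD M replicate 6), 1 to 2 for HFD in females (2 without CD F replicate 3 or 6 or HFD F replicate 4 or 6), 0 to 1 for HFD in males (1 without CD M replicate 1 or HFD M replicate 4) and 2 to 6 for E2 (2 without HFD M replicate 1 or 3 or HFD+E2 M replicate 2, 6 without HFD M replicate 5). The gene gained for HFD in males was Nos1 in both cases. The adjusted count was 0 throughout for the last 4 comparisons.

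With the replicate number as a block, HFD in females gave 2 DEGs, and no other count moved by over 1.5 times. The numbers were not taken to pair the samples, since 18 and not all of the 30 pairs with the same number had deviations correlated above 0.1 (from -0.218 to 0.468). This does not show that the numbers carry nothing. Within each group they rise with the sample numbers in the labels, and an effect of that order was not tested beyond the block. With DESeq2 in place of edgeR, or its size factors in edgeR, no count moved by over 1.5 times. Depth limited the 6 untested genes and the glial genes, with a median of 15 counts for Sox10 and 23.5 for S100b.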
